A study of Homo sapiens with 18 samples.

Results

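Untreated cells of a drug-resistant population were set against drug-treated cells of the parental line they are compared with in this study, to ask which drug-induced levels the resistant cells already hold without drug. The cells are NCI-H460, a human large-cell lung cancer line that grows as an adherent epithelium. The comparison takes 6 of the 18 libraries of the series: 3 of resistant #1 given the solvent DMSO at 0.7% v/v (here untreated resistant 1), and 3 of parental cells given 2 µM all-trans retinoic acid (ATRA) with decitabine at the dose labelled 50 µM (treated parental). The 3 parental libraries with DMSO (untreated parental) set the level from which the drug response is counted, and 3 libraries of resistant #2 with DMSO serve for comparison. All populations are labelled wild type in genotype. Drug or solvent was added 24 h after seeding and RNA was taken at 72 h. How the resistant populations were derived, and whether each is a clone or a mixture, is not given in the sources used here. The contrast changes population and treatment together, so it is a comparison of levels and not of an effect of either.

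Decitabine resembles cytidine, enters newly made DNA and binds DNA methyltransferases there for good, so that methylation is lost as cells divide and silenced genes with methylated promoters can be transcribed. ATRA activates nuclear receptors, the RARs, which sit on DNA with retinoid X receptors and switch on genes of retinoid breakdown, storage and differentiation. DNA damage from trapped enzymes also engages p53, whose targets stop the cell cycle. 

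Depth was 122.3 to 136.9 M reads in untreated resistant 1, 127.0 to 148.7 M in treated parental and 114.7 to 124.5 M in untreated parental libraries, counted over the 20759 genes tested. Levels are given as CPM, counts per 1 M reads after scaling of all 18 libraries together. Differences are on the log2(CPM + 1) scale, as the estimate ± SE, with adjusted p from limma over all genes and n = 3 libraries per group. At this depth 1 CPM is over 100 reads, so this scale understates changes of genes under a few CPM. The replicates are labelled biological, and nothing more is given on whether they came from separate cultures. In bulk RNA, fewer cells with a transcript and less of it per cell cannot be told apart. The keratin KRT18, an epithelial marker, had 411, 454 and 487 CPM in untreated resistant 1, 1169, 1006 and 1045 CPM in treated parental and 719, 736 and 728 CPM in untreated parental cells. The adhesion molecule EPCAM, an epithelial marker, was close to absent in untreated resistant 1, with 7, 3 and 3 reads, against 1036, 1224 and 1420 in treated parental and 94, 89 and 95 in untreated parental libraries. KRT8 had 114308, 118110 and 148922 reads in untreated resistant 1, 249512, 172218 and 220336 in treated parental and 101514, 95165 and 65781 in untreated parental libraries. KRT19 was highest in untreated resistant 1. The 5 epithelial markers of the line summed to 2664 to 3863 CPM there, 2471 to 3188 CPM in treated parental and 2027 to 2446 CPM in untreated parental libraries.

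Most of what the drugs did to parental cells was not held by resistant 1. Of all genes tested, 7009 (33.8%) stood higher in untreated resistant 1 than in treated parental cells and 7735 (37.3%) lower (adjusted p under 0.05), 71.0% together. The 3 libraries of untreated resistant 1 and the 3 of treated parental cells did not overlap for 77.8% of genes. With the drugs, 1748 genes (8.42%) rose at least 2-fold in parental cells and 936 (4.51%) fell at least 2-fold. A gene is called held here where the 95% interval of its difference between untreated resistant 1 and treated parental cells lay within 2-fold. It is called above or below where it was not held and passed the test. By this measure 375 of the 1748 induced genes (21.5%) were held, 1238 (70.8%) were below and 128 (7.32%) were above, and 7 were undecided. Of the 936 repressed genes, 366 (39.1%) were held, 529 (56.5%) were above and 39 (4.17%) were below. Over all genes tested, 73.7% were held, 12.6% above and 13.2% below. The held margin is as wide as the smallest response counted, so a held gene can lie between both parental states. Of the 375 held induced genes, 245 stood at least 2-fold above untreated parental cells and passed that test. Of the 366 held repressed genes, 129 stood at least 2-fold below untreated parental cells and passed it. The treated parental libraries enter both the choice of drug-responsive genes and the comparison with resistant 1, so these shares describe levels and are not an independent test of one against the other.

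The counts depend on the margin, on the pseudocount and on the test, and for repressed genes also on the scaling and the libraries fitted. With a pseudocount of 0.1 CPM, 2961 induced genes were below and 555 held, and with edgeR's quasi-likelihood test on the reads 3502 and 546. These settings chose the induced genes anew, so the counts are not parts of the 1748. The held share of induced genes was then smaller than in the main fit. With a margin of 1.5-fold, 149 induced and 143 repressed genes were held. Leaving out 1 treated parental library at a time, which leaves groups of 2 there, took the held repressed genes to between 215 and 228. Scaling by DESeq2 size factors gave 266 repressed genes held and 392 above. Fitting only the 9 libraries of 3 groups gave 255 and 383.

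**Figure D1:**
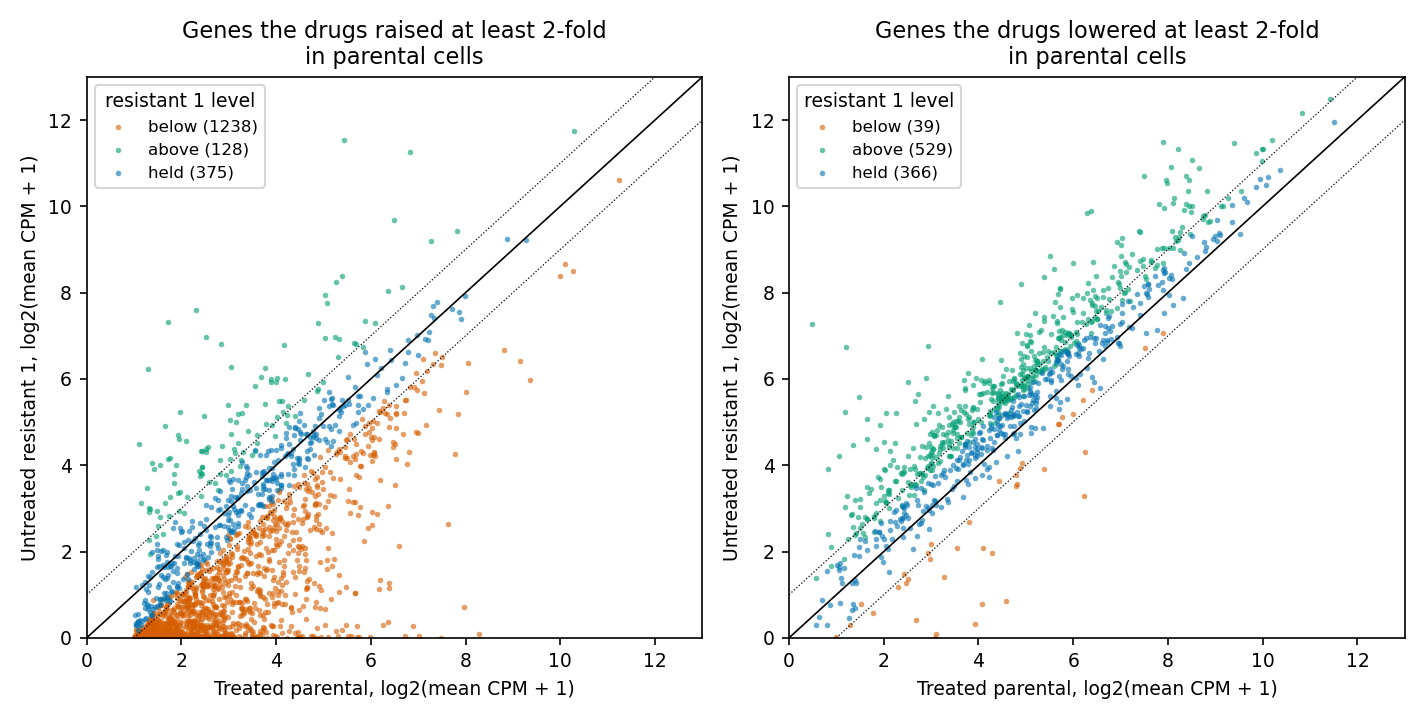
Mean level of each drug-responsive gene in untreated resistant 1 (vertical) against treated parental cells (horizontal), both as log2(mean CPM + 1), with 1748 genes raised by the drugs on the left and 936 lowered on the right. Colours give the class, the solid line marks equal levels and the dotted lines a 2-fold difference. Most raised genes lie under the diagonal, many of them on the floor of the plot, and most lowered genes lie above it.

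The larger the induction in parental cells, the smaller the share that resistant 1 held. Of 1252 genes induced 2 to 4-fold, 326 (26.0%) were held, against 42 of 344 (12.2%) at 4 to 8-fold and 7 of 152 (4.61%) at over 8-fold. Below were 817 (65.3%), 279 (81.1%) and 142 (93.4%) genes in the same order of size. The median difference of resistant 1 from untreated parental cells was 0.17, 0.24 and 0.13 in these bins, close to the -0.00 of all genes. A larger induction leaves more room to be below, and the bins were set by the same treated parental libraries. Among the repressed genes, 361 of 900 (40.1%) that fell 2 to 4-fold were held, and 5 of 35 (14.3%) that fell 4 to 8-fold. Genes whose treated values were not restored with enough certainty are missing from all bins, and their number per bin was not counted. With restoring at 90%, the drugs changed CXCL1 by -3.75, ASNS by -2.82, SCD by -2.62 and TRIB3 by -2.60, so strong falls are under-represented here. Strong rises are missing too, such as CYP26A1 at 8.42 with only treated parental values restored.

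**Figure D2:**
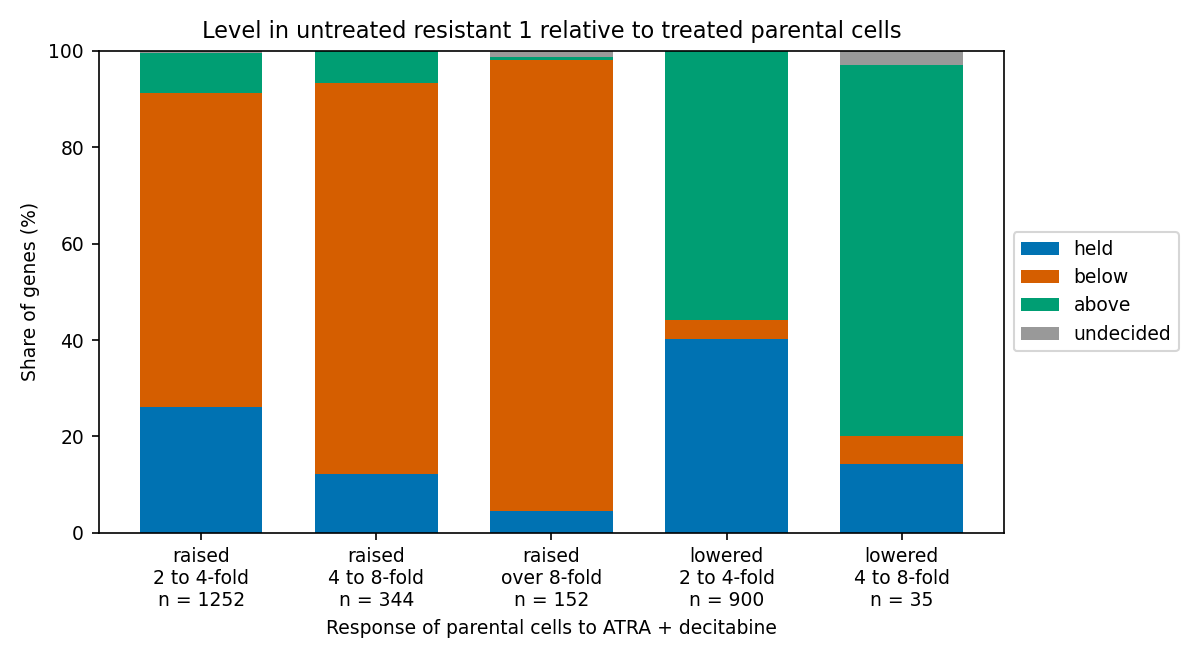
Share of drug-responsive genes by their level in untreated resistant 1 relative to treated parental cells (vertical, percent), by direction and size of the parental response (horizontal), with the number of genes under each bar. The held share goes from 26.0% to 4.61% over the raised bins. The 1 gene lowered over 8-fold, which was above, is not drawn. Genes whose treated values were not restored with enough certainty are not counted, among them CXCL1, which changed by -3.75 with restoring at 90%.

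Part of the induced set was close to silent in untreated parental cells. Of the 1748 induced genes 416 were under 0.1 CPM there, of which 37 were held, 366 below and 13 above in untreated resistant 1. The share of all tested genes under that level was not counted, so the 416 are not a trait of the induced set. Of the 416, 256 were under 0.1 CPM in untreated resistant 1 and 269 in untreated resistant 2. By annotation, 1560 of the 1748 induced genes were protein coding (344 held, 22.1%) and 66 were lincRNAs (14 held, 21.2%), while 2 of 36 induced antisense genes were held (5.56%). Antisense values are uncertain because the strand setting of the counting is not given in the sources used here.

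The held genes with the largest induction had high levels in untreated resistant 1 that parental cells reached only with the drugs. SULF2, an extracellular enzyme that trims sulfate from heparan sulfate (ENSG00000196562, chromosome 20, 47656348 to 47786616, minus strand, GRCh38), had 93.1, 87.2 and 98.0 CPM in untreated resistant 1, 156.5, 108.5 and 112.4 CPM in treated parental and 4.09, 3.84 and 3.14 CPM in untreated parental cells. All resistant 1 libraries lay below all treated parental ones, and far above the untreated parental ones. Its difference from treated parental cells was -0.42 ± 0.16 (adjusted p = 0.0265), beside an induction of 4.74. SPATA18, a p53 target that acts in mitochondrial quality control (ENSG00000163071, chromosome 4, 52051331 to 52097292, plus strand), had 30.8, 29.2 and 28.6 CPM in untreated resistant 1, 53.2, 45.4 and 46.4 CPM in treated parental and 1.99, 2.12 and 2.44 CPM in untreated parental cells. Here too resistant 1 held most of the induced level but less than treated cells (-0.69 ± 0.10, adjusted p = 7.31e-06).

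CDKN1A, the p53-driven inhibitor of cyclin-dependent kinases p21, had 588.8, 566.5 and 649.9 CPM in untreated resistant 1, 478, 449 and 474 CPM in treated parental and 38.3, 49.4 and 49.6 CPM in untreated parental cells. Its 3 resistant 1 libraries all exceeded the 3 treated parental ones (0.36 ± 0.12, adjusted p = 0.0105, and 0.067 without treated parental replicate 2). MYEOV, a gene first described as overexpressed in myeloma, had 22.45, 23.4 and 30.2 CPM in untreated resistant 1, 23.2, 24.9 and 23.4 CPM in treated parental and 1.54, 1.75 and 1.30 CPM in untreated parental cells. The matricellular protein gene CCN3 had 13.9, 20.6 and 20.8 CPM in untreated resistant 1, 17.3, 19.2 and 20.3 CPM in treated parental and 1.22, 0.756 and 0.934 CPM in untreated parental cells. The libraries of untreated resistant 1 and treated parental cells overlapped for MYEOV (0.07 ± 0.19, adjusted p = 0.75) and CCN3 (-0.06 ± 0.29, adjusted p = 0.868), with intervals inside 2-fold.

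ZNF677, a KRAB zinc finger gene, had 6.71, 7.81 and 5.20 CPM in untreated resistant 1, 6.91, 8.79 and 7.90 CPM in treated parental and no read in the 3 untreated parental libraries. DOCK8, an activator of the GTPase CDC42, had 14.99, 12.9 and 16.5 CPM in untreated resistant 1, 10.8, 8.72 and 8.45 CPM in treated parental and 0.186, 0.139 and 0.275 CPM in untreated parental cells (0.62 ± 0.14 over treated parental, adjusted p = 0.000976). Both genes were near or at silence in untreated parental cells. In resistant 1 ZNF677 overlapped the treated parental level (-0.24 ± 0.13, adjusted p = 0.103) and DOCK8 lay above it.

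The 6 repressed and held genes with the largest falls stood low in both untreated resistant 1 and treated parental cells. AKR1C3, an aldo-keto reductase of steroid and prostaglandin metabolism with near-identical relatives that make its reads uncertain, had 144, 138.5 and 132 CPM in untreated resistant 1, 102, 104 and 118 CPM in treated parental and 515, 501 and 591 CPM in untreated parental cells. PAK3, a p21-activated kinase, had 47.9, 43.2 and 36.7 CPM in untreated resistant 1, 33.6, 34.1 and 35.0 CPM in treated parental and 217, 184.5 and 215 CPM in untreated parental cells. SEMA3E, a secreted guidance cue, had 10.8, 12.7 and 11.1 CPM in untreated resistant 1, 12.9, 11.6 and 12.4 CPM in treated parental and 56.7, 55.2 and 68.4 CPM in untreated parental cells. The resistant 1 libraries overlapped treated parental ones for SEMA3E (-0.09 ± 0.10, adjusted p = 0.435) and lay above all of them for AKR1C3 (0.35 ± 0.09, adjusted p = 0.00201) and PAK3 (0.30 ± 0.10, adjusted p = 0.0159).

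The prostaglandin D synthase HPGDS averaged 1.89 ± 0.50 CPM in untreated resistant 1, 3.31 ± 0.28 CPM in treated parental and 29.9 ± 5.33 CPM in untreated parental cells (SD, n = 3 each). HMGN5, a nucleosome-binding protein gene, averaged 17.6 ± 3.96, 23.3 ± 0.34 and 98.1 ± 12.4 CPM in the same order of groups, and MMAB, an enzyme of cobalamin metabolism, 22.6 ± 1.30, 12.6 ± 0.96 and 52.0 ± 4.25 CPM. The small differences from treated parental cells of SULF2, PAK3 and HMGN5 lost their call when single libraries were left out, with adjusted p up to 0.126 for SULF2 (without treated parental replicate 1), 0.0937 for PAK3 (without resistant 1 replicate 1) and 0.147 for HMGN5 (without resistant 1 replicate 3).

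**Figure D3:**
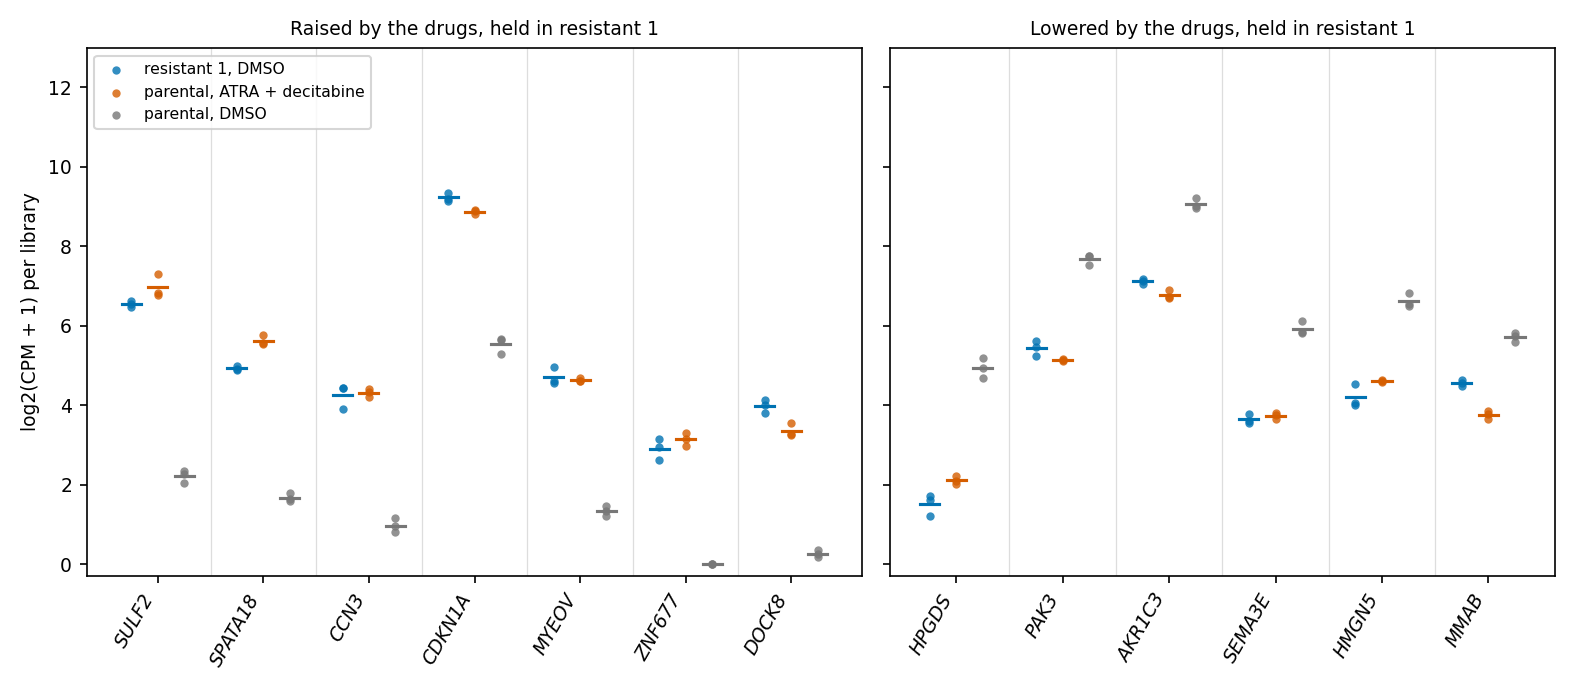
Level per library as log2(CPM + 1) (vertical) for 7 induced and 6 repressed genes that resistant 1 held and that had large responses in parental cells (horizontal). Points are libraries, bars are means, and the colours are untreated resistant 1, treated parental and untreated parental cells. The first 2 groups lie close together, and for CDKN1A all resistant 1 libraries lie above the treated parental ones.

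The promoters of leading genes show what kind of sequence lies at these starts, since decitabine acts on methylated CpG sites. The 2 held and 2 not held genes shown are the first on chromosomes other than 8 with a single-copy gene and a RefSeq start. Each line gives the 250 bases before the RefSeq start nearest to the annotated gene start (build GRCh38.p14), 5′ to 3′ on the gene's strand, with every CpG in capitals.
SULF2 (chr20:47786628-47786877, minus strand): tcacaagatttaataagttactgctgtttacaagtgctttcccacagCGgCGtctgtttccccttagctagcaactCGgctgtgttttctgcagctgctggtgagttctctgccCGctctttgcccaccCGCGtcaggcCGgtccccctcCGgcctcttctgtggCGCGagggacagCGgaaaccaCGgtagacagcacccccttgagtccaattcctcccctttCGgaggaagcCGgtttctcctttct
SPATA18 (chr4:52051054-52051303, plus strand): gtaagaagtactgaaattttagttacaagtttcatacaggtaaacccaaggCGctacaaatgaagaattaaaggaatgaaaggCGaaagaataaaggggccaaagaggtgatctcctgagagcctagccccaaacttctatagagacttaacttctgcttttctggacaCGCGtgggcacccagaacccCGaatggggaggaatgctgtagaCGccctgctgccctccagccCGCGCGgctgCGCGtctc
SLC34A2 (chr4:25655601-25655850, plus strand): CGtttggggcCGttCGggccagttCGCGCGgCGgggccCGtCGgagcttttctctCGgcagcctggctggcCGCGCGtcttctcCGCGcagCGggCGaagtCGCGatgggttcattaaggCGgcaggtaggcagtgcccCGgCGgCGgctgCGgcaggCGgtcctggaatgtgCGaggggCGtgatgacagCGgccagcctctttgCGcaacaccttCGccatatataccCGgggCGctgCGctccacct
GPX2 (chr14:64942746-64942995, minus strand): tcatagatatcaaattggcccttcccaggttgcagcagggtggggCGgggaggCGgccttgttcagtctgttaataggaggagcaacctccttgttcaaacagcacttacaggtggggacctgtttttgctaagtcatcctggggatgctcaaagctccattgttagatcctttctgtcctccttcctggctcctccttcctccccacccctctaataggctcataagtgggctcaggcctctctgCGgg
The window held 14 CpG sites in SULF2 and 11 in SPATA18, against 33 in SLC34A2 and 3 in GPX2. The start of SLC34A2 lies 7840 bases inside the annotated gene. Only 72.8% of the held and 68.9% of the below induced genes have a promoter in the table used, so a comparison of CpG content between the classes is void and is not given.

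The induced genes with the largest deficit rose strongly with the drugs in parental cells and were near 0 in untreated resistant 1. This says nothing on their response in resistant 1, where with the drugs GPX2 averaged 10.3 CPM, MEG3 21.7 CPM and SLC34A2 0.461 CPM. SLC34A2, a sodium-phosphate cotransporter of lung epithelium (ENSG00000157765, chromosome 4, 25648011 to 25678748, plus strand), had 0.0462, 0.0717 and 0.0599 CPM in untreated resistant 1, 249.8, 333 and 343 CPM in treated parental and 0, 0.00869 and 0.00983 CPM in untreated parental cells. The groups did not approach each other (-8.18 ± 0.11, adjusted p = 4.37e-18). GPX2, a glutathione peroxidase of epithelia (ENSG00000176153, chromosome 14, 64939152 to 64942905, minus strand), had 0.0231, 0.0239 and 0.0256 CPM in untreated resistant 1, 144.7, 118.8 and 121.3 CPM in treated parental and 0.0621, 0.0783 and 0.00983 CPM in untreated parental cells (-6.97 ± 0.16, adjusted p = 1.73e-15). MEG3, a long noncoding RNA of an imprinted locus, had 0.0154, 0.0319 and 0.0342 CPM in untreated resistant 1 and 91.97, 119.9 and 103.7 CPM in treated parental cells, with 1 of 3 untreated parental libraries above 0, at 0.00887 CPM.

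The placental-type alkaline phosphatase gene ALPG averaged 0.00285 ± 0.00494 CPM in untreated resistant 1 and 179 ± 18.4 CPM in treated parental cells, and PRAMEF12 0.207 ± 0.0592 and 118 ± 17.7 CPM. Both have near-identical copies, so their reads are uncertain. AQP3, a channel for water and glycerol, had 0.216, 0.295 and 0.376 CPM in untreated resistant 1, 83.1, 82.3 and 79.0 CPM in treated parental and 10.7, 8.47 and 7.74 CPM in untreated parental cells. Resistant 1 thus lay below both parental states (-5.99 ± 0.33 against treated, adjusted p = 9.66e-11).

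SLC34A2 and PRAMEF12 belong to a group known in human embryos and muscle as targets of DUX4, a transcription factor of the cleavage stage, whose list of 31 genes was chosen after values were seen and gets no test. Of its 10 members tested, 10 had risen with the drugs in parental cells and 10 stood lower in untreated resistant 1, 9 of them induced at least 2-fold and below. When only the treated parental libraries had to have restored values, 30 members could be tested, all 30 rose with the drugs and all 30 were lower in untreated resistant 1. In that fit ZSCAN4, a zinc finger gene of the cleavage-stage embryo, had 0.0817, 0.162 and 0.207 CPM in untreated resistant 1, 43.8, 47.6 and 55 CPM in treated parental and 0.0166, 0.0249 and 0.0182 CPM in untreated parental cells. LEUTX, a homeobox gene of the same stage, had 0.00743, 0.00773 and 0 CPM in untreated resistant 1 and 20.99, 28.4 and 31.7 CPM in treated parental cells, and no read in untreated parental libraries.

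A smaller set of induced genes stood far above the treated parental level. MMP1, a collagenase, had 3191, 3008 and 2769 CPM in untreated resistant 1, 41.4, 42.6 and 43.0 CPM in treated parental and 12.1, 13.2 and 17.6 CPM in untreated parental cells. The resistant 1 libraries were all far above both parental states (6.11 ± 0.16 against treated, adjusted p = 8.39e-15). KCNMA1, a calcium-activated potassium channel, averaged 159.5 ± 2.48 CPM in untreated resistant 1, 2.29 ± 0.34 CPM in treated parental and 0.590 ± 0.0226 CPM in untreated parental cells. CEMIP, which takes part in hyaluronan breakdown, averaged 192 ± 13.9, 3.97 ± 0.28 and 0.629 ± 0.205 CPM in the same order. KCNH1, a voltage-gated potassium channel, averaged 74.6 ± 3.23, 1.47 ± 0.23 and 0.0629 ± 0.0207 CPM (adjusted p of the differences from treated parental cells up to 3.08e-09).

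Among repressed genes, those with the largest excess in resistant 1 exceeded the untreated parental level as well. TRPM3, a cation channel, had 163, 157 and 138 CPM in untreated resistant 1, 0.269, 0.538 and 0.372 CPM in treated parental and 2.33, 2.63 and 3.28 CPM in untreated parental cells (6.79 ± 0.12 against treated, adjusted p = 9.71e-17). PTX3, a secreted pattern recognition protein of inflammation, averaged 106 ± 14.1 CPM in untreated resistant 1, 1.30 ± 0.39 CPM in treated parental and 8.94 ± 4.74 CPM in untreated parental cells. KCTD16, an auxiliary subunit of GABA-B receptors, averaged 46.7 ± 5.43, 1.79 ± 0.12 and 9.28 ± 2.18 CPM, and PRUNE2 36.9 ± 3.36, 1.25 ± 0.19 and 3.93 ± 0.59 CPM.

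**Figure D4:**
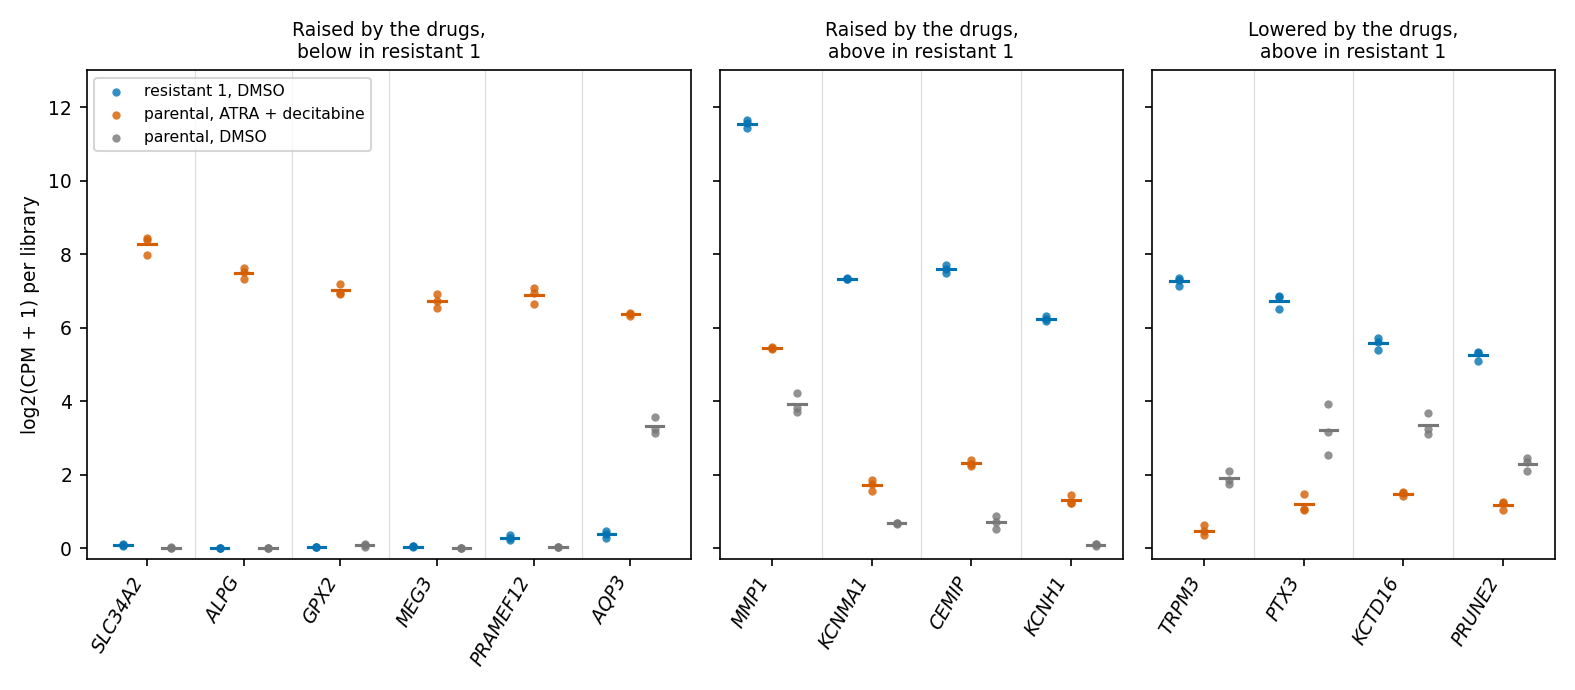
Level per library as log2(CPM + 1) (vertical) for genes that resistant 1 did not hold (horizontal): 6 induced and below, 4 induced and above and 4 repressed and above. Points are libraries, bars are means, and the colours are untreated resistant 1, treated parental and untreated parental cells. In the left panel resistant 1 lies at the floor, and in the middle and right panels it lies above both parental states.

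Over all genes, whether or not the drugs moved them, the largest excesses in untreated resistant 1 were TRPM3, MMP1, MARCOL, CES1, IL7R and FRMPD4. CES1, a carboxylesterase that hydrolyses drugs and lipids, averaged 498 ± 33.1 CPM in untreated resistant 1, 4.73 ± 1.43 CPM in treated parental and 7.18 ± 1.99 CPM in untreated parental cells (6.48 ± 0.23 against treated, adjusted p = 4.4e-13). The cytokine receptor chain IL7R averaged 68.6 ± 7.72 CPM in untreated resistant 1 and 0.0148 ± 0.0153 CPM in treated parental cells. MARCOL averaged 131 ± 16.6 and 0.442 ± 0.140 CPM, and FRMPD4, a scaffold protein of synapses, 68.2 ± 1.13 and 0.0949 ± 0.0285 CPM. None of CES1, IL7R, MARCOL and FRMPD4 passed the test for a drug response in parental cells.

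At the other end, besides SLC34A2, ALPG and GPX2, were MTATP6P1, MTCO1P12 and MTND2P28, nuclear copies of mitochondrial genes whose reads are uncertain. MTATP6P1 had no read in untreated resistant 1, 538, 539 and 535 CPM in treated parental and 722, 734 and 754 CPM in untreated parental cells. MTCO1P12 and MTND2P28 likewise had no read in resistant 1, and averaged 474 ± 17.9 and 112 ± 1.82 CPM in treated parental cells. Resistant 2 shared this absence. Untreated, it averaged 0.00318 CPM for MTATP6P1 and 0 CPM for MTCO1P12 and MTND2P28, and both treated resistant groups averaged 0 CPM for each of them. The 37 genes of the mitochondrial genome have 0 reads in all libraries of the tables.

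Targets of p53 rose together with the drugs, and resistant 1 held part of that rise. The members of this and the following lists were chosen with earlier results of these data known. Beside their counts, 33.8% of all genes were higher and 37.3% lower in untreated resistant 1 than in treated parental cells. Of 31 members tested, 27 rose in treated parental cells (33.3% of all genes did) and 0 fell, and 22 stood above untreated parental cells in untreated resistant 1 (27.1% of all genes did). Against treated parental cells 2 were higher and 20 lower in untreated resistant 1, with a list median of -0.69 (all genes -0.01). Among the 19 induced members, 6 were held and 12 were below. TP53I3, a p53-induced quinone oxidoreductase, averaged 51.0 ± 8.43 CPM in untreated resistant 1, 257 ± 50.5 CPM in treated parental and 16.8 ± 2.26 CPM in untreated parental cells (-2.31 ± 0.23 against treated, adjusted p = 1.36e-07). TP53INP1, a stress protein downstream of p53, averaged 33.4 ± 3.21, 83.1 ± 3.21 and 4.32 ± 0.72 CPM. RRM2B, the p53-inducible ribonucleotide reductase subunit, had 204, 201 and 182.5 CPM in untreated resistant 1, 199, 212 and 213.5 CPM in treated parental and 59.7, 54.7 and 70.8 CPM in untreated parental cells. Its libraries of resistant 1 and treated parental cells overlapped (-0.09 ± 0.11, adjusted p = 0.49). BMF, a BH3-only protein that promotes cell death, averaged 3.44 ± 0.52, 4.08 ± 0.08 and 0.232 ± 0.0436 CPM in the same order and was also held.

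Genes of cell division stood lower in untreated resistant 1 than in treated parental cells. Of 33 genes of G2/M and mitosis 0 were higher and 30 lower, with a median of -0.84. Of 32 genes of G1/S and replication 0 were higher and 29 lower (median -1.04), and of 18 genes of homologous recombination and the Fanconi pathway 0 were higher and 16 lower (median -0.86). With the drugs, 22, 13 and 11 members of these lists fell in parental cells (32.9% of all genes did), with medians of -0.40, -0.42 and -0.45. MKI67, a marker of cycling cells, had 229, 210.1 and 186.5 CPM in untreated resistant 1, 465, 526 and 468.5 CPM in treated parental and 584, 500.2 and 515 CPM in untreated parental cells. The resistant 1 libraries lay below both parental states, which overlapped each other (-1.22 ± 0.14 against treated, adjusted p = 1.18e-06). CDC20, an activator of the anaphase-promoting complex, averaged 57.7 ± 3.33 CPM in untreated resistant 1, 239 ± 8.62 CPM in treated parental and 124 ± 9.54 CPM in untreated parental cells. The replication factor MCM10 averaged 12.9 ± 0.47, 57.7 ± 2.41 and 60.02 ± 3.77 CPM, and BRCA2, which acts in repair of broken DNA, 12.5 ± 1.21, 36.0 ± 0.51 and 39.3 ± 4.26 CPM.

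DNA methylation enzymes were mostly lower as well. Of 17 writers, readers and erasers tested, 4 were higher and 11 lower than in treated parental cells. DNMT1, the maintenance methyltransferase that decitabine traps, had 89.7, 86.6 and 94.6 CPM in untreated resistant 1, 195, 187 and 185 CPM in treated parental and 263, 258 and 223 CPM in untreated parental cells (-1.06 ± 0.13 against treated, adjusted p = 1.15e-06). DNMT3B, a de novo methyltransferase, averaged 3.40 ± 0.41 CPM in untreated resistant 1, 21.1 ± 1.95 CPM in treated parental and 9.64 ± 1.21 CPM in untreated parental cells. UHRF1, which brings DNMT1 to replicated DNA, averaged 14.2 ± 3.52, 60.1 ± 7.54 and 41.7 ± 13.2 CPM. The reader ZBTB4 went the other way, at 107 ± 4.74 CPM in untreated resistant 1 and 47.6 ± 3.60 CPM in treated parental cells. The cell division genes above were low in the same libraries, and their part in these levels was not tested.

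Of 17 genes of decitabine uptake and metabolism tested, 5 were higher and 6 lower in untreated resistant 1 than in treated parental cells, shares near those of all genes (33.8% and 37.3%), and 12 fell with the drugs. DCK, the kinase that activates decitabine, averaged 31.5 ± 2.60 CPM in untreated resistant 1, 26.6 ± 0.86 CPM in treated parental and 34.1 ± 3.88 CPM in untreated parental cells (0.23 ± 0.12 against treated, adjusted p = 0.0947). SLC29A1, the nucleoside transporter ENT1, averaged 30.4 ± 2.40, 43.5 ± 3.74 and 68.4 ± 5.97 CPM (-0.51 ± 0.24 against treated, adjusted p = 0.0703). DCTD, the dCMP deaminase, stood at 84.3 ± 1.50 CPM in untreated resistant 1, 36.8 ± 1.59 CPM in treated parental and 83.6 ± 4.42 CPM in untreated parental cells (1.17 ± 0.06 against treated, adjusted p = 3.38e-11). RRM2, the ribonucleotide reductase subunit of S phase, averaged 209.9 ± 16.2, 276 ± 12.98 and 566 ± 65.5 CPM and did not pass the test (-0.39 ± 0.24, adjusted p = 0.152). With only the 6 libraries of the contrast in the fit, all 3 of DCK (adjusted p = 0.0161), SLC29A1 (0.000591) and RRM2 (0.000806) passed it.

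Genes that respond to retinoic acid did not stand at their drug-induced level in untreated resistant 1. Against untreated parental cells, 2 of 15 were higher in resistant 1 and 5 lower. Of 15 retinoic acid induced genes tested, 13 rose with the drugs and 11 were induced at least 2-fold, and 0 of the 11 were held while 11 were below. The list median against treated parental cells was -2.97. CYP26A1, the retinoic acid hydroxylase that is the classic target of the receptors, had 0.119, 0.1005 and 0.190 CPM in untreated resistant 1, 372, 331 and 353 CPM in treated parental and 0.0249, 0.0415 and 0.0272 CPM in untreated parental cells. Its values come from the fit that needs restored values only in treated parental libraries (-8.28, adjusted p = 3.99e-14). CYP26B1 in that fit had 0.535, 0.619 and 0.859 CPM in untreated resistant 1, 20.8, 25.4 and 27.9 CPM in treated parental and 3.15, 3.30 and 2.33 CPM in untreated parental cells.

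STRA6, the receptor for retinol-binding protein, averaged 0.0188 ± 0.0165 CPM in untreated resistant 1, 33.4 ± 2.47 CPM in treated parental and 0.428 ± 0.246 CPM in untreated parental cells. TGM2, a transglutaminase, averaged 5.22 ± 1.59, 196 ± 6.20 and 6.61 ± 1.73 CPM, while untreated resistant 2 had 172 ± 37.9 CPM. DHRS3, a retinal reductase, had 12.1, 9.30 and 10.7 CPM in untreated resistant 1, 98.2, 85.1 and 87.4 CPM in treated parental and 12.1, 11.5 and 8.80 CPM in untreated parental cells (-2.97 ± 0.15 against treated, adjusted p = 3.66e-11). RARB, a retinoic acid receptor that is itself induced by retinoic acid, averaged 11.2 ± 0.88, 30.3 ± 0.30 and 12.7 ± 0.81 CPM. The adhesion molecule ICAM1 averaged 1.75 ± 0.24, 39.1 ± 2.06 and 2.49 ± 0.36 CPM. TNFAIP2 had no drug response past the threshold and stood at 20.3 ± 1.88 CPM in untreated resistant 1, 404 ± 32.3 CPM in treated parental and 380.4 ± 41.1 CPM in untreated parental cells. Of 14 genes of retinoid signalling and metabolism, 4 of which are also in the list above, 4 were higher and 9 lower in untreated resistant 1 than in treated parental cells. ALDH1A3, which makes retinoic acid, averaged 2.01 ± 0.15, 32.7 ± 4.83 and 3.02 ± 0.09 CPM, and the binding protein CRABP2 0.729 ± 0.117, 16.5 ± 0.77 and 1.90 ± 0.14 CPM.

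HOX genes, which pattern the body axis and respond to retinoids, mostly lay below their drug-induced level in untreated resistant 1. Of 32 tested, 22 rose with the drugs (33.3% of all genes did). In untreated resistant 1, 10 were higher and 21 lower than in treated parental cells (33.8% and 37.3% of all genes). Of 10 induced members 1 was held and 9 were below. The held one was HOXC13, at 26.3 ± 1.02 CPM in untreated resistant 1, 21.7 ± 2.75 CPM in treated parental and 3.70 ± 0.20 CPM in untreated parental cells. HOXA3 averaged 6.59 ± 0.57, 64.5 ± 5.28 and 18.1 ± 2.44 CPM.

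Germline genes mostly rose in parental cells with the drugs and were split in resistant 1. Of 11 cancer-testis genes tested, 10 rose with the drugs (33.3% of all genes did). In untreated resistant 1, 2 were higher and 8 lower than in treated parental cells (33.8% and 37.3% of all genes). Among the 11, 6 stood above untreated parental cells in resistant 1 (27.1% of all genes did). MAGEA12 had 39.1, 38.6 and 44.9 CPM in untreated resistant 1, 6.95, 7.07 and 6.55 CPM in treated parental and 0.0532, 0.0522 and 0.0885 CPM in untreated parental cells, so that resistant 1 exceeded the induced level (2.41 ± 0.09, adjusted p = 1.07e-12). MAGEC2 averaged 0.0883 ± 0.0260 CPM in untreated resistant 1 and 20.2 ± 1.02 CPM in treated parental cells, with no read in untreated parental libraries. With values restored in treated parental cells alone, 26 members were tested, of which 25 rose with the drugs, and 7 were higher and 18 lower in untreated resistant 1. In that fit MAGEA4 had 446, 461 and 475 CPM in untreated resistant 1, 37.8, 43.2 and 44.0 CPM in treated parental and 0.0166, 0.0083 and 0.00908 CPM in untreated parental cells. Members of the MAGEA family share sequence, so their reads are uncertain.

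Of 13 genes of meiosis and the piRNA pathway, 11 rose with the drugs (33.3% of all genes did). In untreated resistant 1, 10 were lower than in treated parental cells (37.3% of all genes), and 1 of 8 induced members was held. MAEL, a piRNA pathway protein, averaged 0.0262 ± 0.0190 CPM in untreated resistant 1, 22.3 ± 0.81 CPM in treated parental and 0.00907 ± 0.00872 CPM in untreated parental cells. DAZL, an RNA-binding protein of germ cells, had 0.0371, 0.0232 and 0.0331 CPM in untreated resistant 1 and 28.5, 37.5 and 35.7 CPM in treated parental cells in the fit with treated parental values alone. That fit tested 24 members, of which 22 rose with the drugs and 20 were lower in untreated resistant 1.

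Mesenchymal genes mostly stood higher in untreated resistant 1 than in treated parental cells. Of 25 tested, 19 were higher and 6 lower (33.8% and 37.3% of all genes), with a median of 1.30. With the drugs, 14 rose and 7 fell in parental cells (33.3% and 32.9% of all genes). Against untreated parental cells 20 were higher and 3 lower in untreated resistant 1 (27.1% and 29.5% of all genes), with a median of 1.01. VIM, the intermediate filament vimentin, had 2288, 2201 and 2013 CPM in untreated resistant 1, 369, 357 and 363 CPM in treated parental and 1394, 1267 and 1361 CPM in untreated parental cells. The drugs lowered it, and resistant 1 lay above both parental states (2.57 ± 0.11 against treated, adjusted p = 2.38e-12). CDH2, N-cadherin, averaged 19.4 ± 2.47, 10.8 ± 0.38 and 3.09 ± 0.27 CPM and was held within 2-fold (0.79 ± 0.09, adjusted p = 1.05e-06). The receptor tyrosine kinase AXL averaged 146 ± 7.96, 18.6 ± 2.58 and 13.2 ± 0.45 CPM. Fibronectin (FN1), a matrix protein, had 12308, 12153 and 10190 CPM in untreated resistant 1, 3581, 3101 and 3110 CPM in treated parental and 3233, 3019 and 3471 CPM in untreated parental cells in the fit with treated parental values alone (1.82, adjusted p = 8.2e-08). SNAI1, a repressor of epithelial genes, went against the list at 1.41 ± 0.46 CPM in untreated resistant 1 and 26.9 ± 2.03 CPM in treated parental cells.

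Epithelial genes mostly stood lower in untreated resistant 1 than in treated parental cells. Of 22 genes of epithelial identity and cell junctions, 14 rose with the drugs in parental cells (33.3% of all genes did). In untreated resistant 1, 5 were higher and 16 lower than in treated parental cells (33.8% and 37.3% of all genes), with 0 of 9 induced members held. Against untreated parental cells 6 were higher and 7 lower (27.1% and 29.5% of all genes), with a median of -0.07. CDH1, E-cadherin, had 0.00771, 0.00797 and 0.00855 CPM in untreated resistant 1, 9.98, 10.4 and 10.2 CPM in treated parental and 0.0177, 0 and 0.0197 CPM in untreated parental cells (-3.47 ± 0.05, adjusted p = 4.37e-18). The splicing regulator ESRP2 averaged 0.110 ± 0.0117, 18.4 ± 0.0873 and 0.222 ± 0.0433 CPM, and desmoplakin (DSP) 3.40 ± 0.36, 95.2 ± 14.2 and 2.94 ± 0.43 CPM. Of the 5 epithelial markers of the line, 1 was higher and 3 lower. The higher one was KRT19, at 1664 ± 381 CPM in untreated resistant 1, 332 ± 57.8 CPM in treated parental and 766 ± 116 CPM in untreated parental cells, and KRT7 averaged 6.20 ± 2.93, 52.2 ± 4.32 and 7.21 ± 1.05 CPM.

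Markers of other cell types moved with the drugs as well. The 5 fibroblast markers tested of 9 summed to 3.01 to 3.25 CPM in untreated resistant 1, 95.5 to 103 CPM in treated parental and 61.3 to 79.2 CPM in untreated parental libraries, and these 5 were lower in resistant 1 than in treated parental cells. With restoring at 90%, 8 fibroblast markers could be tested, of which 1 was higher and 6 lower. The proteoglycan DCN, not among the 5, had 164, 133 and 92 reads in untreated resistant 1, 41, 29 and 50 in treated parental and 25, 19 and 21 in untreated parental libraries. COL1A1, a chain of collagen I, accounted for most of the fibroblast sum in treated parental cells. It had 25, 32 and 31 reads in untreated resistant 1, 11935, 11547 and 13659 in treated parental and 938, 1043 and 498 in untreated parental libraries. COL3A1, a chain of collagen III, fell with the drugs, and averaged 0.249 ± 0.039 CPM in untreated resistant 1, 14.2 ± 2.68 CPM in treated parental and 58.7 ± 9.87 CPM in untreated parental cells. PDGFRB averaged 2.52 ± 0.10, 5.36 ± 0.21 and 5.62 ± 0.56 CPM. The 4 immune markers tested of 8 summed to 0.821 to 1.39 CPM in untreated resistant 1, 33.9 to 38.8 CPM in treated parental and 1.61 to 3.59 CPM in untreated parental libraries, mostly CD14, a co-receptor for lipopolysaccharide. The pan-leukocyte gene PTPRC had 2, 1 and 3 reads in untreated resistant 1 and 83, 97 and 122 reads in treated parental libraries. The 3 endothelial markers tested of 6 summed to 2.58 to 3.60 CPM in untreated resistant 1, 1.55 to 1.63 CPM in treated parental and 0.539 to 0.737 CPM in untreated parental libraries. CDH5 and VWF, not among those 3, went the other way. The cadherin CDH5 had 0, 1 and 1 reads in untreated resistant 1, 725, 528 and 510 in treated parental and 0 in the untreated parental libraries. VWF, the von Willebrand factor, had 27, 25 and 36 reads in untreated resistant 1, 460, 378 and 423 in treated parental and 10, 7 and 9 in untreated parental libraries. With 5 endothelial markers tested at 90%, 2 were higher and 3 lower in untreated resistant 1 than in treated parental cells. The part of other cells in any result was not tested.

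**Figure D5:**
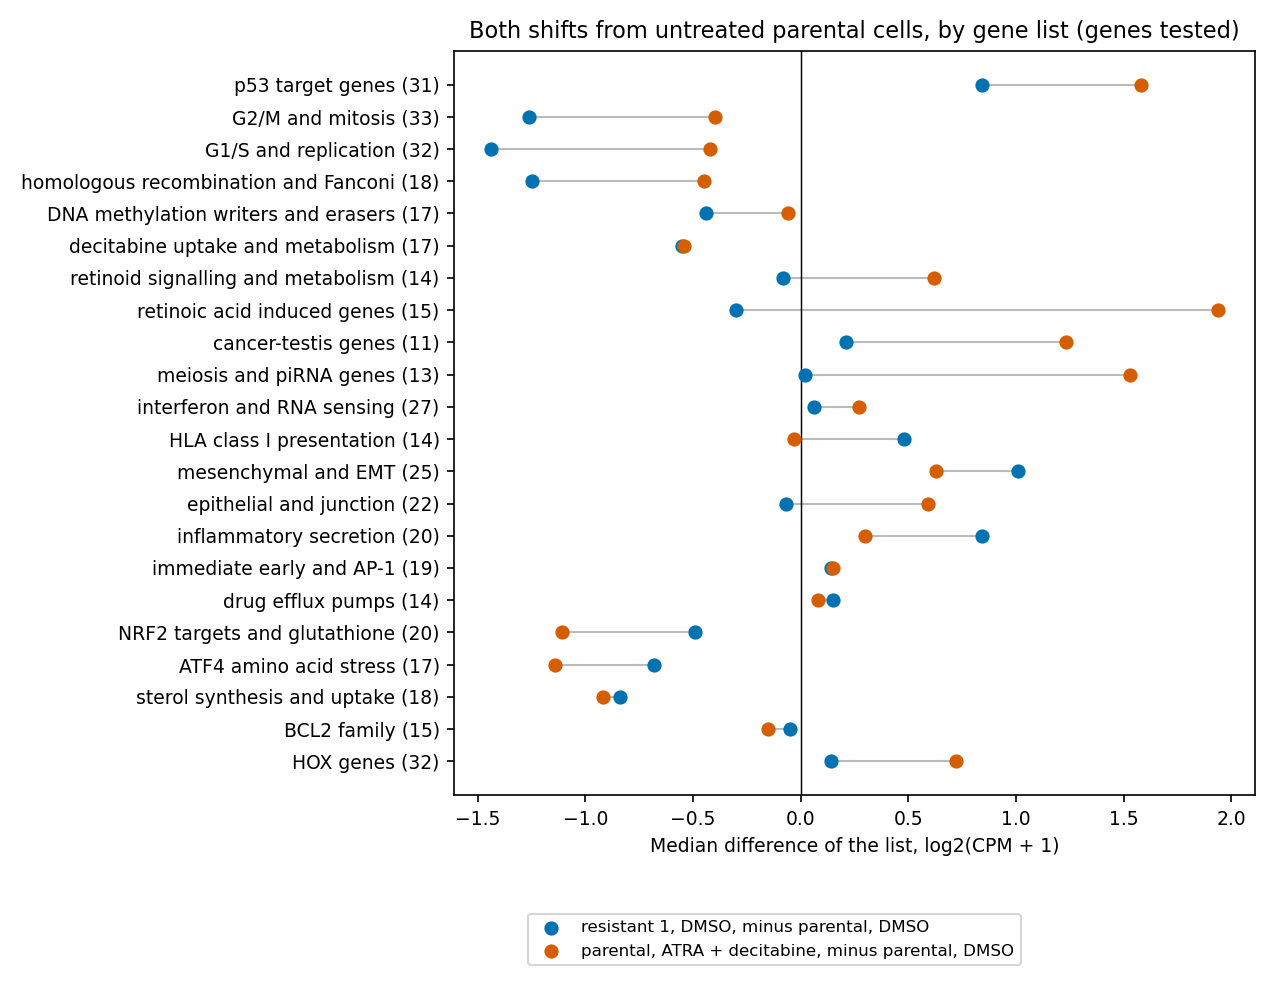
Median difference from untreated parental cells of each gene list, on the log2(CPM + 1) scale (horizontal), in untreated resistant 1 and in treated parental cells. Lines join both medians of a list, and the number of genes tested is in brackets. The p53 targets are raised in both, at 0.84 and 1.58, while retinoic acid induced genes stand at -0.30 in resistant 1 and at 1.94 in treated parental cells. Both medians share the untreated parental libraries.

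Genes of amino acid, sterol and redox metabolism, which the drugs lowered, stood between both parental states in untreated resistant 1 by their medians. Of 17 genes of the ATF4 amino acid response, 13 fell with the drugs, and 10 were higher and 3 lower in untreated resistant 1 than in treated parental cells, while 14 were lower than in untreated parental cells (29.5% of all genes were). ATF4, the transcription factor itself, averaged 519.9 ± 43.0 CPM in untreated resistant 1, 258 ± 12.3 CPM in treated parental and 877 ± 53.4 CPM in untreated parental cells, and the folate enzyme MTHFD2 509.9 ± 73.5, 305 ± 7.52 and 1125 ± 148 CPM. ATF5 went against its list, at 11.6 ± 1.14 CPM in untreated resistant 1, 59.1 ± 6.22 CPM in treated parental and 51.2 ± 6.80 CPM in untreated parental cells. STC2, a secreted glycoprotein, stood at 913 ± 167, 77.7 ± 3.29 and 279 ± 22.8 CPM. Asparagine synthetase (ASNS), whose values reached a restoring probability of 90% only, had 405, 460.1 and 333 CPM in untreated resistant 1, 94.5, 88.2 and 95.3 CPM in treated parental and 551, 640 and 810.3 CPM in untreated parental cells.

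Of 18 sterol genes, 16 fell with the drugs and 15 were lower in untreated resistant 1 than in untreated parental cells, and 6 of 9 repressed members were held. INSIG1, which retains the sterol sensor in the endoplasmic reticulum, averaged 25.8 ± 1.30 CPM in untreated resistant 1, 33.7 ± 7.76 CPM in treated parental and 91.0 ± 3.75 CPM in untreated parental cells. The sterol carrier STARD4 averaged 239 ± 23.5, 97.7 ± 16.7 and 523 ± 143 CPM. The desaturase SCD, restored at 90% only, had 584, 612 and 543 CPM in untreated resistant 1, 425.5, 484 and 490.0 CPM in treated parental and 2885, 2775 and 2960 CPM in untreated parental cells. Of 20 NRF2 targets and glutathione genes, 18 fell with the drugs, and 13 were higher and 3 lower in untreated resistant 1 than in treated parental cells, with 5 of 12 repressed members held. PGD, of the pentose phosphate pathway, averaged 1020 ± 29.2 CPM in untreated resistant 1, 361 ± 8.52 CPM in treated parental and 1261 ± 31.4 CPM in untreated parental cells, and AKR1B10, an aldo-keto reductase, 813 ± 18.5, 469.5 ± 57.8 and 1918 ± 165 CPM.

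Secreted inflammatory factors were mixed. Of 20 tested, 10 were higher and 5 lower in untreated resistant 1 than in treated parental cells (33.8% and 37.3% of all genes), with a median of 0.26, and 11 were higher than in untreated parental cells. The cytokine IL6 had 166.6, 234 and 260.4 CPM in untreated resistant 1, 16.7, 23.2 and 22.9 CPM in treated parental and 29.8, 71.2 and 77.2 CPM in untreated parental cells (3.32 ± 0.37 against treated, adjusted p = 5.99e-07). The chemokine CXCL5 averaged 462 ± 61.3, 44.4 ± 5.05 and 207 ± 64.9 CPM. AREG, a ligand of the epidermal growth factor receptor, went the other way, at 15.4 ± 1.17 CPM in untreated resistant 1, 107 ± 13.5 CPM in treated parental and 11.2 ± 4.73 CPM in untreated parental cells.

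HLA class I genes, which present peptides to T cells, were mostly higher in untreated resistant 1. Of 14 presentation genes 10 were higher and 0 lower than in treated parental cells (33.8% and 37.3% of all genes), with a median of 0.69. HLA-B, whose alleles and copies make its reads uncertain, averaged 120.1 ± 4.46 CPM in untreated resistant 1, 39.1 ± 2.29 CPM in treated parental and 17.9 ± 0.50 CPM in untreated parental cells, and HLA-E 98.3 ± 6.998, 31.9 ± 1.05 and 31.8 ± 3.37 CPM. Of 27 interferon and RNA sensing genes 10 were higher and 11 lower, shares near those of all genes (33.8% and 37.3%). HERC5, an interferon-induced ISG15 ligase, was held at 23.6 ± 1.83 CPM in untreated resistant 1, 32.0 ± 2.45 CPM in treated parental and 6.76 ± 0.72 CPM in untreated parental cells. IFI44L, an interferon-induced gene lowered by the drugs, was lower still in resistant 1, at 0.328 ± 0.0767, 5.41 ± 0.15 and 24.7 ± 2.55 CPM.

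Among drug efflux pumps, 5 of 14 were higher and 4 lower in untreated resistant 1 than in treated parental cells, shares near those of all genes (33.8% and 37.3%). ABCB1, the multidrug transporter P-glycoprotein, had 111, 117.5 and 108 CPM in untreated resistant 1, 8.26, 8.77 and 8.11 CPM in treated parental and 7.496, 7.23 and 8.16 CPM in untreated parental cells. All resistant 1 libraries lay far above both parental states (3.59 ± 0.15 against treated, adjusted p = 3.28e-12), and untreated resistant 2 had 4.90 ± 1.10 CPM. Of 15 BCL2 family genes 6 were higher and 5 lower, again near the shares of all genes, with the survival gene BCL2L1 at 247 ± 16.8 CPM in untreated resistant 1 and 94.6 ± 5.91 CPM in treated parental cells. Of 19 immediate early genes 6 were higher and 8 lower, also near the shares of all genes. FOSB, a subunit of AP-1, averaged 1.86 ± 1.25 CPM in untreated resistant 1, 6.79 ± 1.76 CPM in treated parental and 0.287 ± 0.0194 CPM in untreated parental cells.

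The other resistant population held part of the same genes. Untreated resistant 2 held 394 of the 1748 induced genes (22.5%) and 374 of the 936 repressed ones, over a background of 70.8% of all genes. Of the 375 induced genes that resistant 1 held, resistant 2 held 169 (45.1%), which is 42.9% of its own 394. Of the 375, 284 differed between both untreated resistant populations, 158 with more in resistant 1 and 126 with less, where 54.7% of all genes differed. Of the 366 repressed genes held by resistant 1, resistant 2 held 216 (59.0%). Both comparisons use the same treated parental libraries. ZNF677 had no read in untreated resistant 2, against 6.58 ± 1.31 CPM in untreated resistant 1, and SEMA3E had 11.6 ± 1.02 CPM in untreated resistant 1 and 0.110 ± 0.0237 CPM in untreated resistant 2 (adjusted p = 5.46e-14).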

How the data were processed

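Messenger RNA libraries (stranded kit) of NCI-H460 cells were compared. Per the submitters' processing notes, STAR, featureCounts and DESeq2 were used with build GRCh38; no version is named, nor whether counting used strand. The authors deposited DESeq2-normalized gene counts, a signal per gene (whole reads divided by a size factor per library), in separate tables for DMSO and treated libraries. In the deposited treated table the decimal points were lost, so that its values there are digit strings. They were restored where the negative binomial posterior of the placement reached 99% in all 9 treated libraries, which held for 20549 of 25613 genes with at least 10 reads in 3 libraries (80.2%), more often for genes with many reads. The placement weighed the level of the same population in the DMSO table, so it was not independent of the drug contrast. Without that level 19335 genes were restored as well, 0 of them differently. Tested on the DMSO table with its points removed, 7 of 17663 restored genes were wrong. The prior on levels and spread came from that same table, so this error rate is not from data kept apart. Whole reads were then recovered from the value of 1 read in each library, with 100% of values whole within 0.01 of a read, and all libraries were scaled together.

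All 18 libraries in 6 groups were fitted with limma 3.58.1 (R 4.3.3, trend, TMM scaling from edgeR 4.0.16) on log2(CPM + 1), for 20759 genes with at least 10 reads in at least 3 libraries, with Benjamini-Hochberg adjusted p over all genes and a threshold of 0.05. A gene was drug-induced or drug-repressed at 2-fold and past the threshold. Count tests on recovered reads, edgeR's quasi-likelihood test and DESeq2 1.42.0, were alternatives, since the treated reads rest on restored values. Counts were simulated for 20648 genes, with 67, 67 and 66 genes changed 1.5, 2 and 4-fold for this contrast and the rest unchanged. The fit found 58.2%, 97.0% and 100% of these changes. Of 229 calls 59 (25.8%) were false, against 8 of 138 (5.80%) with only the 6 libraries of the contrast. The false share depends on how many genes differ. In the data 71.0% of genes were called, so their false share cannot be read from this simulation. The simulated share exceeded the threshold of 0.05, so small differences near the threshold are less reliable than the adjusted p states.

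Members and gene lists were chosen with earlier results of these data known. Genes named are the largest responses within each class at a mean of at least 5 CPM, up to 4 members of each list with the largest differences, and 15 genes set by name. Except CYP26A1, CYP26B1 and FN1, genes described from a fit with only treated parental values restored, or at 90%, were picked after their values were seen. RefSeq promoters (GRCh38.p14) were matched by symbol, chromosome and strand for 13020 of 20722 genes (62.8%). Some genes that this rule names are not reported here.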

Additional observations from a re-analysis of the deposited data

Results flagged for a closer look

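The 13 genes drawn in the plot of held genes, 7 induced and 6 repressed, differed between both untreated resistant populations (limma, adjusted p up to 0.00644). Not every held gene did, since BMF differed by -0.02 (adjusted p = 0.941). In log2(CPM + 1), untreated resistant 1 stood above untreated resistant 2 by 1.30 for CCN3, 1.33 for MYEOV, 2.91 for ZNF677 and 1.84 for DOCK8, and the difference was -0.67 for SULF2, -0.58 for SPATA18 and -0.80 for CDKN1A. Among the repressed genes it was 1.39 for HPGDS, 3.50 for SEMA3E, 0.59 for HMGN5 and 0.84 for MMAB, and -2.53 for PAK3 and -2.84 for AKR1C3. Of all genes tested, 54.7% differed between both populations.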

How the results depend on the processing

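Counts of held genes moved most with the margin, and counts of genes below or above with the test and the pseudocount. With edgeR's quasi-likelihood test, induced genes numbered 3502 below and 510 above, and repressed genes 925 above and 72 below. DESeq2's test gave 597 induced genes held, 3554 below and 496 above, and a pseudocount of 0.1 CPM gave 2961 induced below, 344 above and 62 repressed below. Each of these settings chose the induced and repressed genes anew, so the counts have totals of their own. A margin of 1.5-fold left 149 induced and 143 repressed genes held, with 62 repressed below. Leaving out 1 library at a time gave 6190 to 7300 genes higher and 6872 to 7740 lower in untreated resistant 1. Induced genes were then 351 to 418 held, 1197 to 1323 below and 128 to 144 above, and repressed genes 215 to 422 held, 366 to 550 above and 31 to 43 below. The low counts of held repressed genes were 224, 215 and 228, without treated parental replicate 1, 2 and 3. Which of these shifts reflect fewer genes tested was not tested. Replicate numbers did not pair the libraries (same-number correlations between untreated resistant 1 and treated parental cells of -0.309, 0.499 and -0.192). With the replicate number as a block, 7180 genes were higher and 7873 lower, and 384 induced genes were held, 1232 below and 127 above. For named genes, 2846 values kept direction and call, 34 lost and 13 gained the call, and 2 turned round. Without each library in turn, CCN3 gave -0.15 to 0.12 and MYEOV -0.05 to 0.15, with the sign turned without untreated resistant 1 replicate 1 for CCN3 and replicate 3 for MYEOV. DESeq2 size factors shifted the contrast by -0.05. With them, repressed genes were 266 held, 392 above and 34 below, and induced genes 429 held, 1328 below and 132 above. With only the 9 libraries of 3 groups in the fit, repressed genes were 255 held, 383 above and 30 below, and induced genes 465 held, 1321 below and 144 above. The self-test and the pseudocount limit small differences and genes under 1 CPM.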
